A study of Mus musculus with 24 samples.

Results

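Setd3 knock-out embryonic stem cells were compared with themselves across the first step of an endoderm differentiation, from day 0, when they were still self-renewing, to day 2, when they had been without leukaemia inhibitory factor (LIF) and without feeder cells for 2 days. The comparison took the 3 knock-out libraries of day 2 against the 3 knock-out libraries of day 0, 6 of the 24 libraries of the study, across all genes. The cells are CJ9, a mouse embryonic stem cell line, with Setd3 disrupted by CRISPR-Cas9, and SETD3 is a methyltransferase known for modifying a histidine of actin. Day 0 cells grew with LIF on mouse embryonic fibroblasts that had been mitotically inactivated. Day 2 cells had been separated from the fibroblasts and kept in serum-free endoderm differentiation medium, before any Activin A was given. Wild-type CJ9 cells of the same 2 days, 3 libraries each, were set beside them, and the study as a whole concerned the role of SETD3 in forming endoderm and the part of canonical Wnt signalling in that role. A single knock-out line was used, and whether the libraries of a group came from separate cultures is not stated in the labels, so p-values measure the spread between these libraries, which may be technical. Polyadenylated RNA was sequenced, and counts per gene summed to between 19802402 and 22431632 in the 6 knock-out libraries.

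LIF binds its receptor LIFR together with gp130, the product of Il6st, and through JAK kinases activates STAT3, which keeps mouse embryonic stem cells in the naive state of the early epiblast. When LIF is withdrawn, cells lose the naive transcription factors and pass through a formative state like that of the epiblast after implantation, in which FGF and the de novo DNA methyltransferases are prominent, before they can answer signals for germ layers. Endoderm is then induced by Nodal or Activin together with canonical Wnt signalling by way of the primitive streak.

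Expression is given as CPM, a gene's counts relative to the library total after scaling the libraries to each other, and libraries are listed in the order of their replicate numbers. CPM takes no account of transcript length and was used to compare a gene between libraries, not genes with each other. Changes are log2 fold changes of day 2 over day 0, and the value after ± is the absolute fold change divided by √F, with F the test statistic, in place of a fitted standard error. A gene was said to rise or fall where the quasi-likelihood test of edgeR, adjusted by the Benjamini-Hochberg method over all tested genes, gave an adjusted p under 0.05, and every adjusted p below is from that test.

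Promoters of 2 genes are shown from groups whose members nearly all moved in a single direction, Socs3 from the LIF targets and Hmgcs1 from sterol synthesis. Each is the 250 bases before the RefSeq start on GRCm38.p6, 5′ to 3′ on the gene's strand. Socs3, the feedback inhibitor of LIF and cytokine receptors, fell by 5.63 on the log2 scale, and its window is chr11:117969367-117969616 on the minus strand. The capitals mark TTCTTAGAA, a match to the STAT motif TTCNNNGAA, which ends 145 bases before the start. In GENCODE M21 the gene reaches further upstream, to 117970047.
Socs3: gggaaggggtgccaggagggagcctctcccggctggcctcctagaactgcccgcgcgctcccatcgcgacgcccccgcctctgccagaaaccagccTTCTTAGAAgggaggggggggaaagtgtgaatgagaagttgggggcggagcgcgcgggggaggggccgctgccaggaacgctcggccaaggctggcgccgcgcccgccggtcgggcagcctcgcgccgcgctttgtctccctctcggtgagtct
Hmgcs1, the cytosolic synthase at the head of sterol synthesis, rose by 1.52, and its window is chr13:119690101-119690350 on the plus strand. The capitals mark TCACCCCAC, a match to the sterol response motif TCACNCCAC, 128 bases before the start.
Hmgcs1: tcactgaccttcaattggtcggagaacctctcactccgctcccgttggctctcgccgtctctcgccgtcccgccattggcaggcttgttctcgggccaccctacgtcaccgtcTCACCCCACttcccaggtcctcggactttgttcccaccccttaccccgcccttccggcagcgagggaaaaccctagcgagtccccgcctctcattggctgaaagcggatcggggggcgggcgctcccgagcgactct
The STAT letters, searched on both strands, were in 7.02% of all 32851 promoter windows and in 11.1% of the windows of fallen LIF and STAT3 target genes, which is 1 of 9. The sterol response letters were in 1.05% of all windows and in 7.14% of the windows of risen cholesterol synthesis genes, 1 of 14. Counted by gene, the shares over all tested genes with a window were 6.98% for the STAT letters and 1.23% for the sterol response letters. Each motif was also in 1 of 10 naive genes that fell and in 1 of 10 formative genes that rose, so neither was particular to its list. A match is a description of the letters in the window.

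The labels were checked on the targeted gene. Setd3, on the minus strand of chromosome 12 from 108106431 to 108179314 on GRCm38, had 47.7, 48.8 and 42.3 CPM in the knock-out libraries of day 0 and 33.9, 29.6 and 29.2 CPM in those of day 2. Wild-type libraries held 120, 127 and 119 CPM at day 0 and 97.1, 97.2 and 98.2 CPM at day 2. The knock-out level was thus 38% of the wild-type level at day 0 and 31.7% at day 2, below every wild-type library, and transcript was still counted. Within the knock-out, Setd3 fell by 0.58 ± 0.06 (adjusted p = 3e-08), and the fall of 0.32 in the wild-type did not differ from it past the threshold (adjusted p of the difference = 0.0741). Of the other protein methyltransferases and related genes, 10 listed with Setd3 included, 2 rose and 3 fell: Setd7 rose from 29.2, 27.4 and 22.4 CPM to 84.4, 80.2 and 91 CPM, Mettl9 rose by 0.24, and Smyd1 and Smyd2 fell by 2.20 and 0.40.

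The cells were also checked against markers. Pou5f1, Nanog, Zfp42 and Esrrb, 4 of the 5 defining embryonic stem cell markers, were high in every day 0 library, while Sox2 is listed at 0 in all 24 libraries and its level is not known here. The summed level of the 5 was 2280 to 2440 CPM in the knock-out at day 0 and 586 to 633 CPM at day 2. Fibroblast markers of the feeder layer were present at day 0: 20 such genes summed to 3681, 2622 and 1396 CPM in the 3 knock-out libraries, and to 281, 216 and 156 CPM at day 2. The day 0 libraries therefore differed among themselves in feeder transcripts, with replicate 1 highest and replicate 3 lowest. Some genes below are said to follow this order. The share of all tested genes that do so was not counted, so the order is description only. Markers of muscle summed to 17.4 to 22.5 CPM at day 0 and 18.7 to 26.8 CPM at day 2, and those of macrophages to 36.5 to 40.2 CPM and then 9.43 to 11.5 CPM. In bulk RNA, fewer cells of a type and less RNA per cell cannot be told apart.

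**Figure D1:**
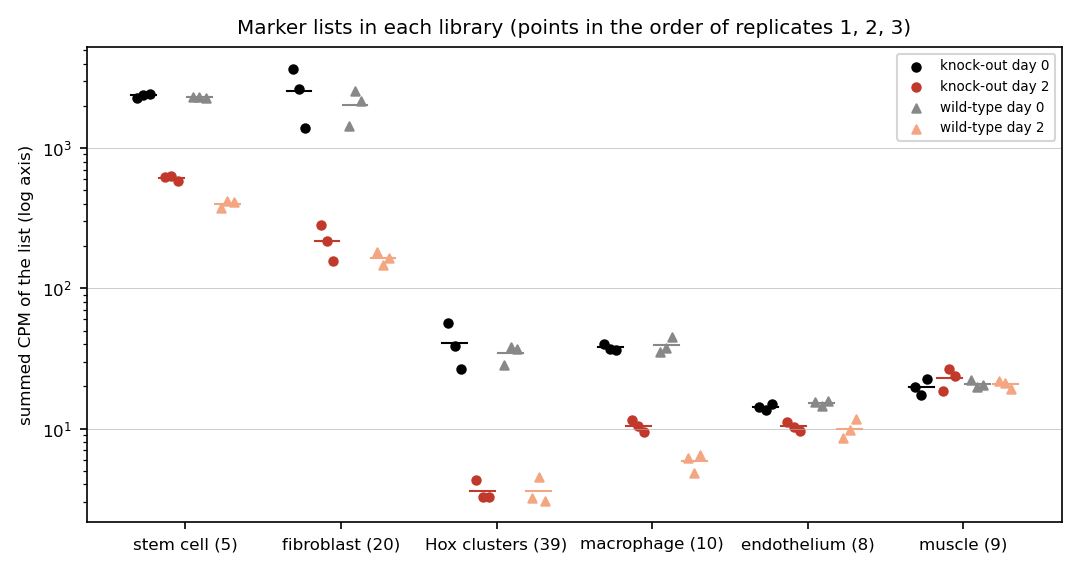
Summed CPM of cell type markers in the knock-out and wild-type libraries of days 0 and 2; points are libraries in replicate order and lines are group means. The feeder sum of the knock-out falls from 1396 to 3681 CPM at day 0 to 156 to 281 CPM at day 2.

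The step moved most of the transcriptome. Of 17144 tested genes, 10304 (60.1%) changed between day 0 and day 2 in the knock-out, 5066 upwards (29.5%) and 5238 downwards (30.6%). At least 2-fold changes were found in 1767 genes that rose (10.3%) and in 2556 that fell (14.9%). The median log2 fold change over all tested genes was -0.01, and the 5th and 95th percentiles were -2.79 and 1.75. In 11043 genes (64.4%) the 3 libraries of one day lay wholly above the 3 of the other day. These shares are the background against which counts of gene groups are read below.

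**Figure D2:**
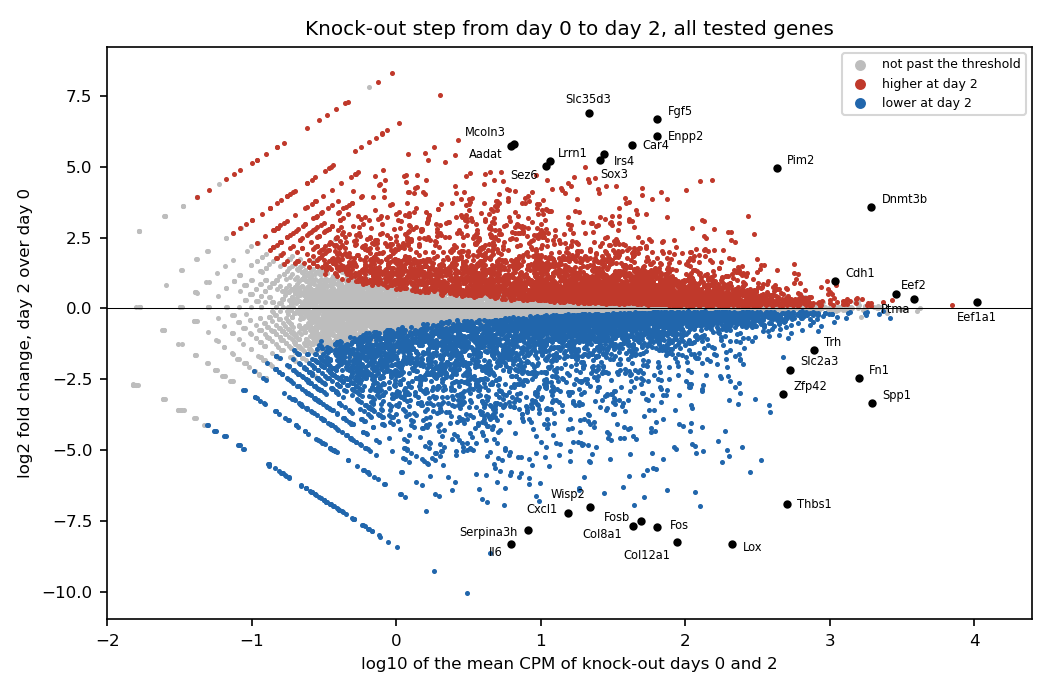
Log2 fold change of day 2 over day 0 in the knock-out (vertical axis) against the mean CPM of the 2 days on a log10 axis, 1 point per tested gene; red genes rose, blue genes fell and grey genes did not pass the test. Genes named for the step by fold change or CPM are in black, and among these the rises reach 6.88 for Slc35d3 and the falls -8.32 for Lox.

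The naive transcription programme was largely lost. Of 18 naive pluripotency genes, all tested, 15 fell and 1 rose, with a median of -3.13 beside -0.01 for all genes. Klf4, a Krüppel-like factor and direct STAT3 target, went from 211, 221 and 258 CPM to 2.21, 2.5 and 3.04 CPM, a fall of 6.47 ± 0.13 (adjusted p = 6.72e-22). Tbx3, a T-box factor downstream of LIF, went from 106, 106 and 91.7 CPM to 1.61, 1.94 and 1.65 CPM. Gbx2, a homeobox factor also listed among the LIF and STAT3 targets, went from 22.4, 20.2 and 20.1 CPM to 0.502, 0.357 and 0.798 CPM. In each of the 3 the groups were far apart and little transcript was left at day 2.

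Other naive factors fell less and were still clearly counted at day 2. Esrrb, an orphan nuclear receptor, had 643, 705 and 744 CPM at day 0 and 66.1, 77.7 and 54.3 CPM at day 2 (-3.40 ± 0.20, adjusted p = 7.62e-11). Nanog, a homeobox factor of the pluripotency core, had 386, 404 and 430 CPM and then 64.3, 70.2 and 63.8 CPM (-2.62 ± 0.10, adjusted p = 1.4e-15). Zfp42, also called Rex1 and widely used as a reporter of the naive state, had 837, 875 and 833 CPM and then 102, 116 and 95.8 CPM, among the 6 largest falls in CPM of any named gene. Day 0 and day 2 libraries were far from overlapping in all 3. Klf2 (-2.99), Nr5a2 (-3.22), Nr0b1 (-3.05), Tfcp2l1 (-4.32), Tcl1 (-4.77), Jam2 (-4.08), Klf5 (-2.68), Prdm14 (-3.39) and Pecam1 (-1.80) fell as well. Tfe3, whose exclusion from the nucleus accompanies exit from the naive state, was the 1 naive gene that rose, from 135, 138 and 125 CPM to 158, 162 and 171 CPM. Fgf4, the FGF ligand made by stem cells, had 109, 113 and 127 CPM and then 151, 144 and 141 CPM, and its log2 fold change of 0.32 did not pass the test (adjusted p = 0.123).

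**Figure D3:**
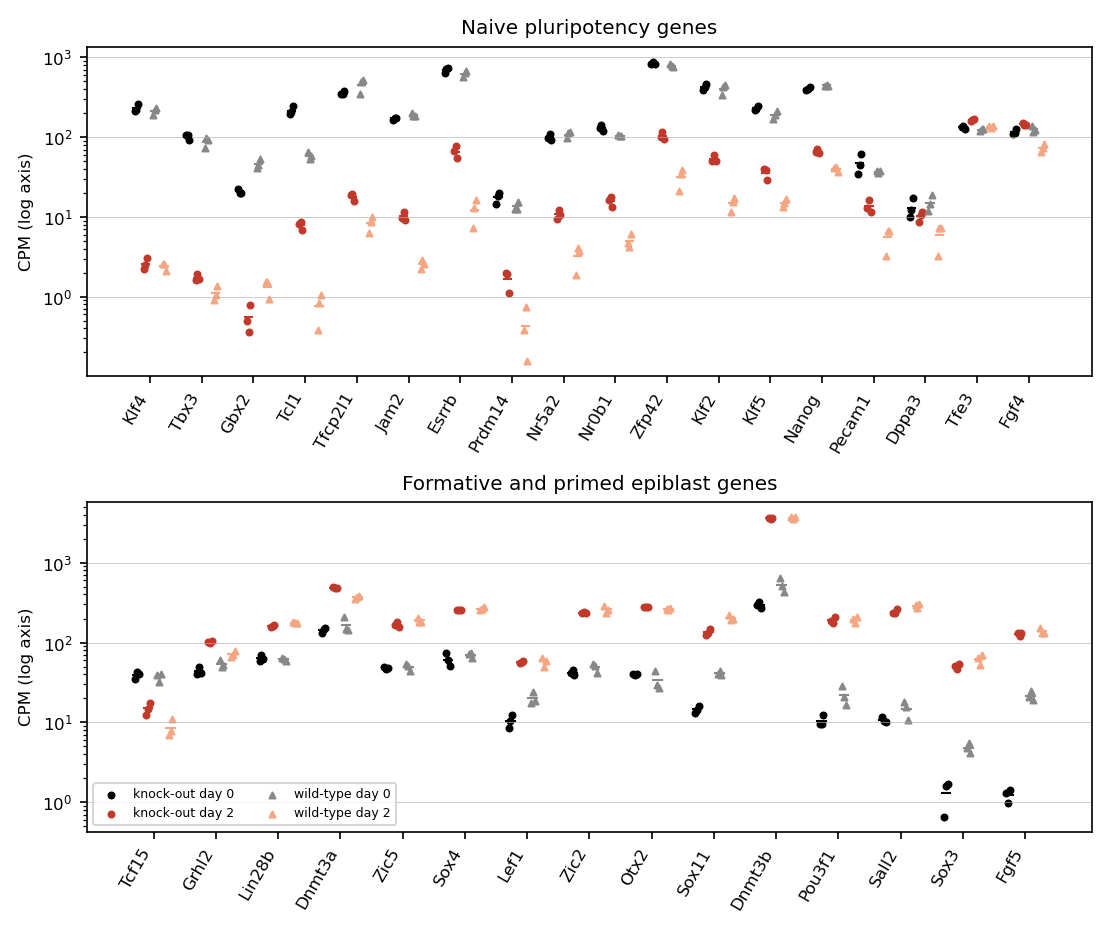
CPM on a log axis of the reported naive and formative genes in each library; circles are knock-out (black day 0, red day 2), triangles are wild-type (grey day 0, orange day 2) and bars are group means. Klf4 ends near 3 CPM in both genotypes, whereas Esrrb ends at 54.3 to 77.7 CPM in the knock-out and at 7.24 to 16.5 CPM in the wild-type.

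Of 8 components of the receptor and its signal, 5 fell and 2 rose, with a median of -1.30. The receptor subunit Il6st had 220, 177 and 154 CPM at day 0 and 52.2, 59.5 and 53 CPM at day 2, and Lifr had 112, 114 and 128 CPM and then 43.2, 46.6 and 43 CPM. Stat3, the transcription factor of the pathway and one of its own targets, had 180, 163 and 141 CPM and then 46.5, 45.3 and 38.3 CPM (-1.90 ± 0.10). The 2 days did not overlap in any of these 3. In Il6st and Stat3 the day 0 libraries followed the order of the feeder sum, replicate 1 highest and replicate 3 lowest, and in Lifr they did not; the part of feeder cells in these falls was not tested. Jak1 fell by 1.19 and the ligand gene Lif by 1.62. Ptpn11, which links gp130 to ERK, rose by 0.25, Jak2 rose by 0.60, and Tyk2 did not pass the test.

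All 10 tested targets of LIF and STAT3, of 11 listed, fell, with a median of -3.52, among them Klf4, Klf5, Tfcp2l1, Gbx2 and Stat3, which are also counted above. Socs3, whose promoter is shown above, had 115, 99.9 and 137 CPM at day 0 and 2.56, 1.83 and 2.69 CPM at day 2 (-5.63 ± 0.19, adjusted p = 2.03e-16). Junb, a subunit of AP-1, had 159, 112 and 102 CPM, in the order of the feeder sum, and then 13, 12.6 and 12.3 CPM. Every day 2 library of both genes was far below every day 0 library. Bcl3, an IκB-like co-regulator, fell by 3.75, and the serine/threonine kinases Pim1 and Pim3 by 2.45 and 1.59. Their paralogue Pim2 went the other way, from 26.1, 27.7 and 27 CPM to 819, 803 and 874 CPM (4.95 ± 0.25, adjusted p = 2.18e-11), one of the 6 largest rises in CPM among named genes.

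Core pluripotency genes, which the naive and primed states share, moved little as a group: of 11 tested (12 listed), 2 rose and 5 fell, with a median of -0.16. Pou5f1, which encodes OCT4, had 414, 418 and 432 CPM at day 0 and 394, 369 and 372 CPM at day 2. These groups did not overlap, but the log2 fold change of -0.16 did not pass the test (adjusted p = 0.316). Lin28a, an RNA-binding protein that blocks let-7 maturation, rose from 443, 446 and 421 CPM to 812, 789 and 846 CPM (0.90 ± 0.05, adjusted p = 3.34e-14). Tdgf1, the Nodal co-receptor also called Cripto, fell from 443, 501 and 698 CPM to 64.9, 67.2 and 48.4 CPM. Zfp296 fell by 1.10, L1td1 by 0.64, Dppa2 by 0.47 and Trim28 by 0.24, and Utf1 rose by 0.45 (adjusted p = 0.0405), a call that 9 of 12 other settings did not keep.

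The formative programme rose. Of 16 formative and primed epiblast genes, all tested, 14 rose and 2 fell, with a median of 2.48. Fgf5, a ligand that marks the epiblast after implantation, went from 1.32, 0.993 and 1.43 CPM to 131, 120 and 130 CPM (6.67 ± 0.12, adjusted p = 2.96e-22). Dnmt3b, a de novo DNA methyltransferase, went from 299, 325 and 274 CPM to 3653, 3512 and 3598 CPM (3.58 ± 0.12, adjusted p = 1.44e-14), the largest rise in CPM of any gene the naming rule could take. Otx2, a homeobox factor that drives entry into the formative state, went from 40.5, 39.6 and 39.9 CPM to 278, 280 and 277 CPM (2.80 ± 0.14, adjusted p = 5.68e-12). The libraries of a day lay close together in all 3 and the days were far apart.

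Among the other formative genes, Pou3f1, an octamer-binding partner of OTX2, rose from 9.62, 9.66 and 12.4 CPM to 187, 176 and 209 CPM. Sall2, a zinc-finger factor, rose from 11.8, 10.6 and 10.1 CPM to 236, 235 and 259 CPM (4.49 ± 0.17). Sox3, a SOXB1 factor of the epiblast and neural plate, rose from 0.662, 1.58 and 1.68 CPM to 50.6, 47.3 and 53.1 CPM. No day 2 library of these genes came near a day 0 library. Sox11 (3.21), Zic2 (2.50), Lef1 (2.45), Sox4 (2.06), Zic5 (1.78), Dnmt3a (1.75), Lin28b (1.35) and Grhl2 (1.23) rose as well. Tcf15, a bHLH factor of cells primed to leave the naive state (-1.40), was among the 2 that fell.

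All 9 genes of DNA methylation and its removal changed, 6 upwards and 3 downwards. Besides Dnmt3a and Dnmt3b, the maintenance enzyme Dnmt1 rose by 0.33 and its partner Uhrf1 by 0.29. Among the TET dioxygenases, which oxidise methylcytosine, Tet2 fell from 167, 191 and 191 CPM to 10.6, 11.6 and 8.98 CPM (-4.13 ± 0.11, adjusted p = 3.22e-19), while Tet3 rose from 12.2, 11.7 and 10.9 CPM to 45.8, 45.6 and 45 CPM. Tet1 fell by 1.06. Dnmt3l, the catalytically inactive cofactor of the de novo enzymes, fell from 230, 250 and 239 CPM to 75.1, 80.7 and 79.4 CPM, the opposite direction to its partners. The glycosylase Tdg rose by 0.97.

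Genes outside these lists with the largest rises were found by the naming rule. Slc35d3, a nucleotide sugar transporter family member, had the highest log2 fold change of the named genes: 0.356, 0.406 and 0.296 CPM became 41.2, 41 and 45.5 CPM (6.88 ± 0.35, adjusted p = 2.67e-12). Enpp2, which encodes autotaxin, the secreted enzyme that makes lysophosphatidic acid, went from 2.39, 1.76 and 1.38 CPM to 121, 125 and 132 CPM (6.09). Car4, a membrane-bound carbonic anhydrase, went from 0.407, 1.9 and 2.27 CPM to 79.2, 80.7 and 92.9 CPM (5.77). All 3 were low at day 0 and high in every day 2 library. Mcoln3, a cation channel of endosomes, rose by 5.80, Aadat, an aminotransferase of kynurenine metabolism, by 5.73, Irs4, an insulin receptor substrate, by 5.44, the membrane protein gene Lrrn1 by 5.19 and the neuronal gene Sez6 by 5.02. In absolute CPM, the elongation factor Eef1a1 went from 9476, 9494 and 10077 to 11412, 11237 and 11291, a rise of 0.22, with Eef2 (0.33) and Ptma, prothymosin alpha (0.51), behind it.

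Of 12 primitive streak and mesendoderm genes, 2 rose and 4 fell (median -0.49), and of 12 definitive endoderm genes, 2 rose and 2 fell (median -0.15, or -0.24 without Cer1). Eomes, a T-box factor of the streak and endoderm, rose from 3.66, 4.11 and 4.59 CPM to 5.93, 7.34 and 9.38 CPM (0.87, adjusted p = 0.0308), a call that 7 of 12 other settings did not keep, and Tbx6 rose by 0.93, a call that 7 did not keep. T, which encodes brachyury, had 0.662, 0.226 and 0.395 CPM and then 0.352, 0.051 and 0.2 CPM, with overlapping groups (adjusted p = 0.639), where wild-type libraries held 43.2, 73.5 and 53.5 CPM at day 0 and 42, 33.3 and 17.3 CPM at day 2. Foxa2, an endoderm factor, was between 0.102 and 0.494 CPM in all 6 knock-out libraries. Cer1, a secreted Nodal and Wnt inhibitor, had 0 counts in the 6, and 1.13 to 2.57 CPM at day 0 and 4.92 to 11.4 CPM at day 2 in the wild-type. Sox17, Gata4, Gata6 and Cxcr4 did not pass the test. Wnt3, the ligand that starts the streak, fell by 2.22, and Wnt3a went from 34 counts over the 3 libraries to 3, a 10.9-fold lower level (95% exact interval 3.42 to 55.3, counting error only). In the endoderm list, Trh, the thyrotropin-releasing hormone gene, fell from 1179, 1188 and 1052 CPM to 435, 430 and 360 CPM, while Shisa2 and Kitl rose by 0.76 and 0.68.

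Among 13 tested neuroectoderm genes (18 listed), 4 rose and 5 fell: Hes5, a Notch target, rose by 2.97, the intermediate filament gene Nes by 2.15 and Lhx2 by 1.19, while Zic1 fell by 4.18, the cell adhesion gene Ncam1 by 2.16 and Pax6 by 1.27. Of 16 tested primitive and visceral endoderm genes (18 listed), 8 fell and 1 rose (median -0.74). Lama1, a laminin chain of the basement membrane, fell from 38.4, 42.4 and 44.9 CPM to 6.08, 8.46 and 7.03 CPM, without overlap, and Lrp2, which encodes the endocytic receptor megalin, rose by 2.09. Of 10 trophoblast genes, Tfap2c, which also serves naive cells, fell by 3.61 and the keratin gene Krt7 rose by 2.51. The 12 tested germline genes (14 listed) held 2 that rose and 2 that fell. Genes of the cleavage-stage programme seen in rare stem cells, of which 12 of 15 were tested, held 8 that fell and 0 that rose by edgeR, with 9 and 0 at an unadjusted p under 0.05 and 7 and 0 by DESeq2. All were low at day 0, and 4 of the 12 had 0 counts in the knock-out at day 2. These 4 could pass the filter on low counts only through other groups, so their fitted direction was set beforehand. Zscan4d had 1.53, 0.948 and 1.48 CPM at day 0 and 0.1, 0.102 and 0 CPM at day 2. Zscan4c went from 66 counts to 1, a 63.3-fold lower level (95% exact interval 11 to 2539), and Zscan4b, with 0 counts at day 2, was at least 6.72-fold lower against a floor of 3 counts over the group. The median of the list was -3.75 as fitted, and -2.75 with genes at 0 counts set to that bound. Reads of the near-identical Zscan4 copies may be shared between them. The number that fell was 4 to 9 over the other settings.

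In the Nodal and Activin pathway, which was to be stimulated from day 2, 8 of 17 genes fell and 3 rose (median -0.42). The ligand Nodal went from 47, 48.4 and 55.5 CPM to 5.52, 6.78 and 5.34 CPM (-3.10 ± 0.18, adjusted p = 1.58e-11). Its feedback inhibitors fell with it: Lefty2 from 185, 261 and 322 CPM to 9.74, 9.63 and 4.24 CPM (-5.02 ± 0.30, adjusted p = 1.27e-10), and Lefty1 from 92, 152 and 168 CPM to 3.67, 4.64 and 2.1 CPM. No day 2 library reached a day 0 library. Inhbb, which encodes an activin subunit, fell by 4.80, the inhibitory SMAD gene Smad7 by 3.59, and Inhba, a further activin subunit with 0 counts at day 2, was at least 20.4-fold lower. The type II receptor gene Acvr2b rose by 0.95, the common SMAD gene Smad4 by 0.52 and the co-repressor Skil by 0.86, and Smad2 and Smad3 did not pass the test.

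Among 16 feedback targets of canonical Wnt signalling, 4 rose and 7 fell (median -0.83). Axin2, the most general of these targets, had 17.3, 15.9 and 15.6 CPM at day 0 and 15.5, 18.9 and 17.5 CPM at day 2 (0.09 ± 0.19, adjusted p = 0.702), and the days overlapped. Lef1, Tcf7 and Nkd1 rose, by 2.45, 1.36 and 1.31, and so did the receptor-degrading ligase Rnf43, by 0.56, a call that 6 of 12 other settings did not keep. Lef1 and Tcf7 are themselves the nuclear partners of beta-catenin. Myc fell by 1.71, the Wnt deacylase Notum by 2.19, Apcdd1 by 0.84 and Ccnd1 by 0.82. Lgr5, an R-spondin receptor, was between 0.552 and 2.9 CPM in all 6 libraries and fell by 1.41 (adjusted p = 0.0312), which 6 settings did not keep. Sp5 went from 242 counts over the group to 2, a 116-fold lower level (95% exact interval 31.8 to 964), and Cdx1 from 198 counts to 1, a 190.0-fold lower level (interval 33.7 to 7543).

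FGF genes and the ERK pathway behind them moved in both directions. Of 9 FGF ligands and receptors, 2 rose (Fgf5 and the receptor Fgfr1, 0.68) and 2 fell. These make 44.4%, a smaller share of changes than the 60.1% of all tested genes. Fgf17 went from 35.2, 36.7 and 38.4 CPM to 1.41, 0.968 and 1.75 CPM. Of 15 ERK feedback genes and targets, 3 rose and 9 fell (median -0.84). The phosphatase gene Dusp4 rose from 24.6, 27.2 and 33.8 CPM to 240, 237 and 247 CPM (3.08 ± 0.12, adjusted p = 3.41e-15), and Dusp6 and Spry1 rose by 0.66 and 0.89. The immediate early factor Egr1 fell from 427, 321 and 432 CPM to 11.9, 10.6 and 9.73 CPM (-5.20 ± 0.22, adjusted p = 9.29e-13). Days were separate in both Dusp4 and Egr1. Spry4 fell by 1.23, Spred1 by 0.91, Etv4 by 0.84 and Spry2 by 0.65.

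BMP signalling genes fell: 8 of 11 fell and 0 rose by edgeR, with a median of -1.44. At an unadjusted p under 0.05 and by DESeq2 the counts were also 8 and 0. Id1, a helix-loop-helix inhibitor and direct BMP target, had 28.1, 27.1 and 21.6 CPM at day 0 and 1.96, 1.89 and 3.34 CPM at day 2 (-3.41 ± 0.36, adjusted p = 2.18e-07), without overlap. Its day 0 libraries followed the order of the feeder sum, replicate 1 highest and replicate 3 lowest. The part of feeder cells in the falls of this list was not tested. The ligand Bmp4 fell by 2.48, the inhibitory SMAD gene Smad6 by 2.52, the homeobox target Msx2 by 4.85, and Id2, Id3 and Id4 by 0.83, 0.82 and 1.44.

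Epithelial genes rose and mesenchymal genes fell. Of 13 epithelial genes, 12 rose and 0 fell by edgeR, with a median of 2.30. The counts were 12 and 0 at an unadjusted p under 0.05 and 11 and 0 by DESeq2. Cdh1, which encodes E-cadherin, went from 668, 752 and 798 CPM to 1470, 1468 and 1416 CPM (0.97 ± 0.06, adjusted p = 1.42e-12). Krt8 and Krt18, the keratin pair of simple epithelia, went from 6.97, 7.4 and 7.11 CPM to 56.8, 55.5 and 53.3 CPM, and from 4.78, 4.92 and 7.01 CPM to 77.8, 78.6 and 70.5 CPM. The days were separate in all 3. The tight junction genes Cldn3 (3.09), Cldn6 (2.82), Cldn7 (3.09) and Ocln (2.30), the polarity gene Crb3 (2.19), the splicing regulator Esrp1 (1.65), the adhesion gene Epcam (1.24) and the small GTPase gene Rab25 (3.15) rose as well. Cldn4 did not pass the test.

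On the mesenchymal side, 9 of 10 genes fell, with a median of -3.05. Vim, which encodes vimentin, had 973, 726 and 445 CPM at day 0 and 60.5, 55.7 and 55 CPM at day 2. Fn1, fibronectin, had 3114, 3188 and 1786 CPM and then 511, 528 and 430 CPM. Day 0 libraries differed among themselves in both genes, with replicate 3 lowest as in the feeder markers, and remained above every day 2 library. S100a4 fell by 6.33, Snai2 by 5.01, Cdh11 by 4.56, Zeb1 by 3.95, Zeb2 by 1.44 and Snai1 by 1.06. Cdh2, N-cadherin, did not pass the test (0.14, adjusted p = 0.724). The feeder marker sum moved with these genes, from 1396 to 3681 CPM at day 0 to 156 to 281 CPM at day 2, and its part in the result was not tested.

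All 20 feeder markers fell, from -8.32 to -0.83 with a median of -3.48, and 17 to 20 fell over the other settings. Lox, which encodes the collagen crosslinking enzyme lysyl oxidase, had the lowest log2 fold change among the 10 that the naming rule took from the step: 599, 441 and 224 CPM became 1.91, 1.38 and 0.649 CPM (-8.32 ± 0.41, adjusted p = 1.33e-11). Col1a1, a chain of type I collagen, went from 406, 381 and 185 CPM to 16, 13.5 and 8.43 CPM (-4.68). Transcript of this feeder marker was thus still counted at day 2, and which cells it came from was not tested. Thy1 fell least, from 85.7, 56.8 and 32.5 CPM to 31.2, 31.2 and 36 CPM, with overlapping groups, a call that 2 of 12 other settings did not keep. Col12a1 (-8.24), Col8a1 (-7.67), Wisp2 (-6.99), the chemokine gene Cxcl1 (-7.22) and Serpina3h (-7.81), whose reads may be shared with close copies, were also among the 10 lowest, as were the immediate early genes Fos (-7.70) and Fosb (-7.49). Il6 went from 774 counts over the group to 2, a 371-fold lower level (95% exact interval 102 to 3072).

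All 18 tested Hox genes (39 listed), which embryonic fibroblasts express by their position in the body, fell as well. In each knock-out library of day 2, 24 to 27 of the 39 were at 0. The filter on low counts therefore favoured genes present at day 0, and the count of 18 was largely set by it. Hoxb9 had 10.7, 8.89 and 5.18 CPM at day 0 and 0.151, 0.204 and 0.0499 CPM at day 2 (-5.88 ± 0.44, adjusted p = 2.65e-11). Hoxc10 and Hoxd10 had 0 counts at day 2 and were at least 14.1-fold and at least 9.47-fold lower. The list's median was -3.80 as fitted and -3.69 with these 2 at their bound, and 13 to 18 fell over the other settings. Summed over the 39 Hox genes, day 0 libraries held 26.5 to 56.3 CPM and day 2 libraries 3.24 to 4.32 CPM. Spp1, which encodes the secreted phosphoprotein osteopontin, was the largest fall in CPM among named genes, from 4869, 3408 and 2491 to 446, 386 and 223 (-3.35 ± 0.32). Thbs1, thrombospondin, fell from 1269, 1254 and 494 CPM to 10.6, 7.65 and 6.79 CPM. In Hoxb9, Spp1, Thbs1, Lox and Col1a1 the order of the day 0 libraries was that of the feeder sum, replicate 1 highest and replicate 3 lowest. The wild-type feeder sums of day 0 were 1424, 2542 and 2148 CPM. Wild-type Lox (210, 319 and 306 CPM) and Thbs1 (487, 1213 and 1011 CPM) followed the order of these sums, and Spp1 (3206, 3276 and 2767 CPM) did not. The part of feeder cells in each fall was not tested.

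Genes of the actin cytoskeleton are of interest because actin is the known substrate of SETD3. The cytoplasmic actins did not pass the test: Actb had 2287, 2212 and 1910 CPM at day 0 and 2147, 2047 and 2211 CPM at day 2 (adjusted p = 0.993), with overlap. Acta2, the smooth muscle actin that fibroblasts also make, fell from 206, 168 and 72.1 CPM to 1.26, 1.68 and 2.3 CPM (-6.41), with day 0 again in the order of the feeder sum. Of 16 tested actin and SRF target genes (20 listed), 6 fell and 1 rose (median -0.15). Actg2 (-6.85), Cyr61 (-4.35), Tagln (-3.88), Ctgf (-3.22) and Tpm2 (-0.88) fell, Flna rose by 0.74, and Srf itself did not pass the test (0.02, adjusted p = 0.805).

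Sterol synthesis rose almost as a whole. Of 23 tested genes (24 listed), 22 rose and 1 fell, with a median of 1.03, and 21 to 22 rose over the other settings. Hmgcs1, shown above, went from 156, 169 and 222 CPM to 527, 521 and 523 CPM (1.52 ± 0.09, adjusted p = 2.11e-12). Sqle, squalene epoxidase, went from 116, 121 and 138 CPM to 343, 332 and 350 CPM (1.45 ± 0.06, adjusted p = 1.93e-16). The days were separate in both. Srebf2, the transcription factor of the pathway, rose by 0.74, and Insig1, the sterol-sensing brake, by 0.34 (adjusted p = 0.0132), which 5 of 12 other settings did not keep. Ebp, a sterol isomerase, was the 1 that fell, from 33.3, 34.4 and 34.4 CPM to 13, 10.1 and 11 CPM.

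Amino acid stress genes controlled by ATF4 went down: 12 of 15 tested (16 listed) fell and 2 rose, with a median of -0.98. Asns, asparagine synthetase, had 352, 359 and 397 CPM at day 0 and 105, 109 and 112 CPM at day 2 (-1.77 ± 0.06, adjusted p = 3.84e-17). Atf3 fell by 3.59, the mitochondrial serine enzyme Shmt2 by 1.10, Psat1 by 0.92 and Atf4 by 0.72. The cystine transporter gene Slc7a11 rose by 1.73, and Phgdh by 0.20, a call that 8 of 12 other settings did not keep. Of 20 tested glycolysis and hypoxia genes (21 listed), 9 fell and 1 rose (median -0.45). Slc2a3, a high-affinity glucose transporter, fell from 607, 817 and 1175 CPM to 183, 201 and 198 CPM (-2.16 ± 0.18, adjusted p = 8.37e-09), while its paralogue Slc2a1 rose from 118, 168 and 245 CPM to 326, 328 and 345 CPM (0.91). Vegfa fell from 60.6, 59.8 and 67.2 CPM to 9.94, 9.84 and 7.83 CPM, and Hk2 and Pgk1 fell by 1.40 and 0.77. In Slc2a3 and Slc2a1 replicate 1 was the lowest and replicate 3 the highest of day 0, the reverse of the feeder sum.

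**Figure D4:**
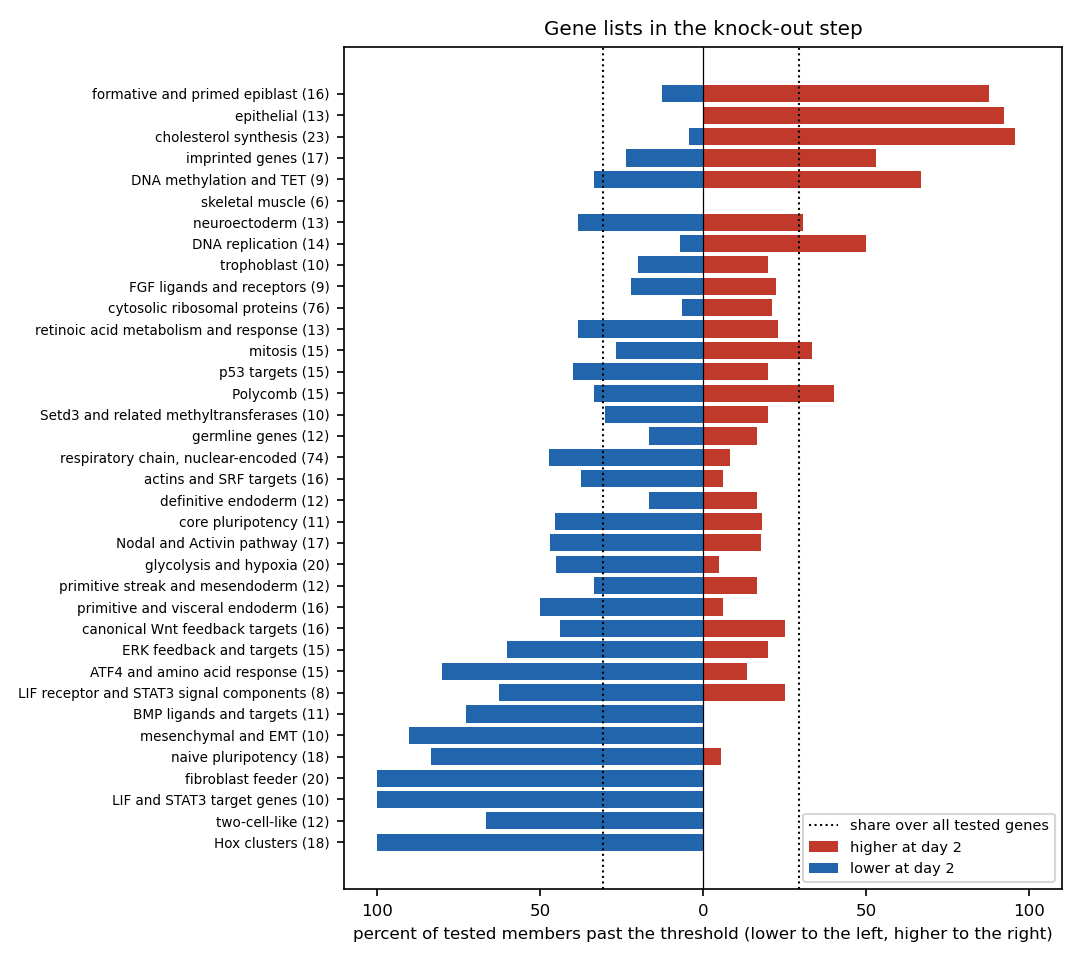
Percentage of tested members of each gene list that rose (right) or fell (left) from day 0 to day 2 in the knock-out, for lists with at least 6 tested members; dotted lines are the shares of all tested genes, 29.5% and 30.6%. Cholesterol synthesis, epithelial and formative genes lie furthest to the side of rises, and feeder, Hox and LIF target genes to the side of falls. For Hox genes the filter on low counts favoured those present at day 0.

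Housekeeping, cell cycle and p53 target groups had small median changes, though single members changed more. Of 76 tested cytosolic ribosomal protein genes (83 listed), 16 rose and 5 fell with a median of 0.05, a smaller share of changes than the 60.1% of all genes. Rps26 rose by 0.40, and the copies Rpl10l and Rpl39l, whose reads may be shared with their parent genes, fell by 3.06 and 2.60. Of 74 tested nuclear-encoded respiratory chain genes (75 listed), 35 fell and 6 rose with a median of -0.14, and falls numbered 23 to 41 over the other settings. Uqcrc1 and Atp5l each fell by 0.49. Among 14 tested replication genes (16 listed) 7 rose, among them the sliding clamp Pcna, from 404, 424 and 416 CPM to 514, 517 and 535 CPM, and Mcm7, by 0.34. Of 15 mitosis genes 5 rose, with Bub1 at 0.66, and 4 fell, and Cdk1 did not pass the test (adjusted p = 0.992). Among 15 p53 targets 3 rose and 6 fell, with a median of -0.04, and 3 of the falls were at least 2-fold. Cdkn1a, the p21 inhibitor, fell from 182, 123 and 94.6 CPM to 67.4, 57.1 and 53.8 CPM, with day 0 in the order of the feeder sum, and the death receptor gene Fas fell by 4.26.

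Of 17 tested imprinted genes (21 listed), 9 rose and 4 fell, with a median of 0.85. The maternally expressed noncoding RNAs of the Dlk1-Dio3 region rose together: Meg3 from 266, 254 and 202 CPM to 579, 641 and 634 CPM (1.36), Rian by 1.24 and Mirg by 1.51. Rtl1 of the same region rose by 1.49, though it overlaps an antisense transcript and use of strand in counting is not given, whereas Dlk1 fell by 0.81, a call that 6 of 12 other settings did not keep. Peg3, Mest and Impact rose by 0.96, 0.99 and 0.69. H19 fell from 343, 110 and 117 CPM to 43.2, 31 and 14.7 CPM, and Plagl1 by 2.74. Among 15 Polycomb genes, 6 rose and 5 fell: Eed, a core subunit of PRC2, fell from 322, 316 and 298 CPM to 138, 141 and 139 CPM, the accessory subunit gene Mtf2 fell by 0.91, and the PRC1 genes Cbx2 and Kdm2b rose by 1.21 and 0.99. Ezh2 and Suz12 did not pass the test. In retinoic acid metabolism, with 3 of 13 genes up and 5 down, the uptake receptor gene Stra6 rose by 4.66, the binding protein gene Crabp2 by 3.22, and the degrading enzyme gene Cyp26b1 fell by 3.43.

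To see which of these changes belong to the step in general, the same step of the wild-type was set beside them, and the difference of the 2 steps was tested gene by gene. In the wild-type 10936 genes (63.8%) changed, 5485 upwards (32.0%) and 5451 downwards (31.8%). Of the knock-out's changes 8592 were also changes in the wild-type in the same direction, which is 83.4% of the knock-out's calls and 78.6% of the wild-type's. Another 70 were called in opposite directions, 31 upwards and 39 downwards in the knock-out. The difference passed the test in all 70, which their choice by opposite calls in the same fit made nearly certain. In 1642 genes the knock-out passed the threshold and the wild-type did not, and in 228 of these the difference itself passed. The difference passed in 1259 genes (7.34%), positive in 732 (4.27%) and negative in 527 (3.07%). It was at least 2-fold in 282 of the positive genes (1.64%) and 189 of the negative ones (1.1%). In 597 of them (47.4%) the 2 steps had the same fitted direction and the knock-out's was the smaller, in 305 (24.2%) it was the larger, and in 357 (28.4%) the fitted directions were opposite.

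**Figure D5:**
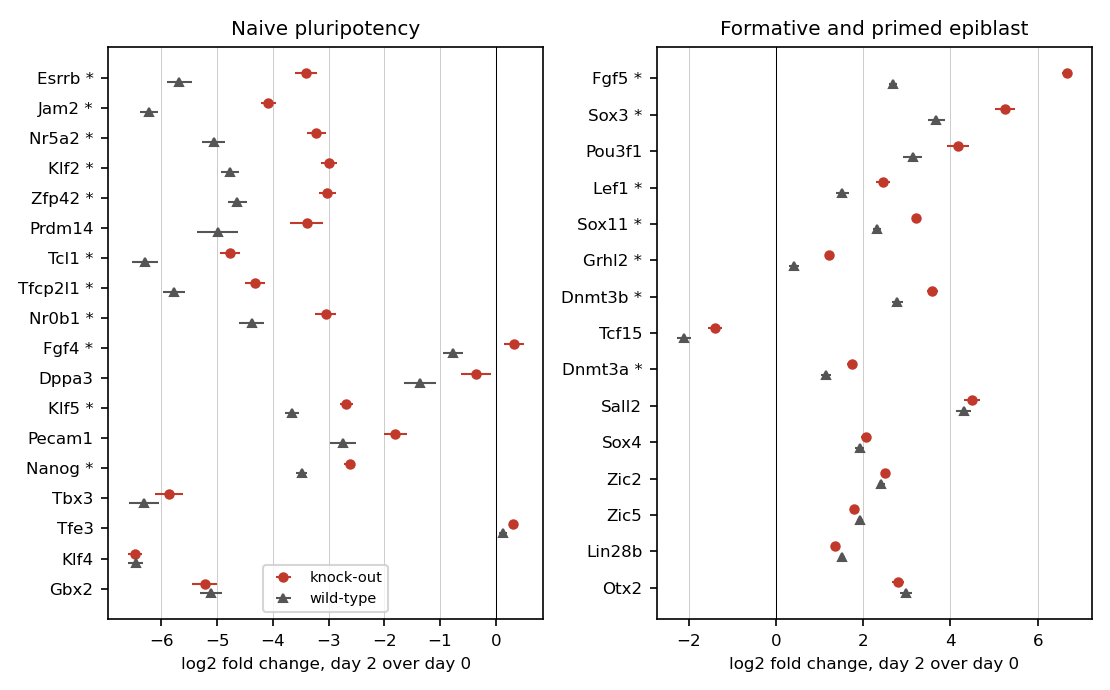
Log2 fold change from day 0 to day 2 in the knock-out and in the wild-type for the reported naive and formative genes; bars are ± the fold change over the square root of F, and a star marks a difference past the threshold. Klf4 has the same fall in both genotypes, Esrrb and Zfp42 fall less in the knock-out and Fgf5 rises more.

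The naive genes fell less in the knock-out. Of 18, 11 had a positive difference and 0 a negative one by edgeR (14 and 0 at an unadjusted p under 0.05, and 13 and 0 by DESeq2), and the median fall was -3.13 in the knock-out and -4.88 in the wild-type. In the wild-type Esrrb went from 569, 644 and 667 CPM to 7.24, 13.1 and 16.5 CPM, so that the step differed by 2.28 ± 0.28 (adjusted p = 8.63e-05). Wild-type Zfp42 went from 825, 772 and 763 CPM to 21.3, 34.2 and 39.2 CPM (difference 1.62 ± 0.21, adjusted p = 0.000133), and wild-type Nanog from 442, 452 and 439 CPM to 40.9, 41.8 and 36.7 CPM (difference 0.86 ± 0.13, adjusted p = 0.000315). The genotypes were close at day 0 and apart at day 2. For 16 of the 18 genes every knock-out library of day 2 lay above every wild-type library of day 2, while at day 0 the genotypes overlapped in 11. The share of all tested genes with such an order was not counted, so these counts are description only. Jam2, an adhesion molecule (difference 2.14 ± 0.22, adjusted p = 2.68e-06), Klf2 (1.78 ± 0.20, adjusted p = 1.91e-05), Nr5a2 (1.85), Tcl1 (1.52), Tfcp2l1 (1.45), Nr0b1 (1.33) and Klf5 (0.97) also fell less in the knock-out. Fgf4, whose rise in the knock-out did not pass the test, fell in the wild-type from 137, 115 and 123 CPM to 65.5, 74.1 and 81.9 CPM (difference 1.08, adjusted p = 0.0132). Klf4 did not share the pattern (difference -0.01, adjusted p = 0.994).

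LIF targets did not all follow. Pim1 fell less in the knock-out (difference 1.05, adjusted p = 0.000242), but Socs3 fell more: wild-type libraries went from 108, 91.6 and 118 CPM to 3.79, 5.22 and 4.2 CPM, a difference of -1.04 ± 0.27 (adjusted p = 0.0195) that 4 of 18 other settings did not keep. Among core genes, Zfp296 (0.88) and Tdgf1 (0.89, lost in 14 of 18 settings) fell less, and in the DNA methylation list Dnmt3l fell by 1.61 against 2.80 in the wild-type (difference 1.19) and Tet2 had a difference of 0.64. Etv5, an ETS factor downstream of FGF, did not pass the test in the knock-out (0.20, adjusted p = 0.0703) and fell by 0.64 in the wild-type (difference 0.85, adjusted p = 0.000536).

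Among formative genes, the difference was positive in 8 of 16 and negative in 0 by edgeR (10 and 1 at an unadjusted p under 0.05, and 10 and 0 by DESeq2), and positive in 3 to 10 over the other settings. Fgf5 had the smallest adjusted p of these: wild-type libraries already held 20.7, 24.9 and 18.8 CPM at day 0 and reached 150, 131 and 133 CPM, a rise of 2.68 against 6.67 in the knock-out (difference 3.98 ± 0.16, adjusted p = 2.38e-14). The genotypes were far apart at day 0 and close at day 2. Wild-type Dnmt3b went from 650, 507 and 427 CPM to 3685, 3533 and 3686 CPM (difference 0.80 ± 0.16, adjusted p = 0.00481), overlapping the knock-out at day 2 and not at day 0. Sox3 (1.58), Lef1 (0.93), Sox11 (0.89), Grhl2 (0.81) and Dnmt3a (0.59, lost in 10 of 18 settings) had positive differences as well. In 6 of the 16 genes every knock-out library of day 0 lay below every wild-type library of day 0, and in 10 the genotypes overlapped at day 0. Here too the share of all tested genes was not counted, and the counts are description only.

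Enpp2 and Car4 followed the same form. Wild-type Enpp2 went from 15.4, 10.1 and 6.34 CPM to 121, 128 and 128 CPM, and the knock-out reached 121 to 132 CPM from 1.38 to 2.39 CPM (difference 2.52 ± 0.38, adjusted p = 0.000538). Wild-type Car4 went from 12.1, 13 and 10.2 CPM to 122, 119 and 119 CPM (difference 2.41, adjusted p = 0.000125), and the knock-out stayed below it at both days. Krt8 had 29.1, 83 and 73.9 CPM and then 79.4, 87.2 and 61.3 CPM in the wild-type, which did not pass the test, and its difference of 2.65 ± 0.39 (adjusted p = 0.000538) came with knock-out levels near 7 CPM at day 0. Krt18 differed by 2.41 (adjusted p = 0.00118). Pdlim3, an actinin-binding LIM protein, went from 0.916, 0.316 and 0.691 CPM to 10.9, 12.7 and 10.9 CPM in the knock-out and rose by 1.30 in the wild-type (difference 2.88 ± 0.36, adjusted p = 2.97e-05). Nsg2, a neuronal vesicle protein, went from 1.37, 1.53 and 1.93 CPM to 15.6, 12.1 and 16.5 CPM and rose by 0.55 in the wild-type (difference 2.64, adjusted p = 2.18e-05).

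Some genes went lower in the knock-out than the wild-type step would give. Id1 fell from 27.6, 32 and 32.4 CPM to 10.6, 15.1 and 11.6 CPM in the wild-type, against the steeper fall of the knock-out from a similar start (difference -2.11 ± 0.47, adjusted p = 0.0112). Emilin2, a matrix glycoprotein, fell in the knock-out from 12.8, 10.5 and 4.64 CPM to 4.27, 3.26 and 3.19 CPM and rose in the wild-type from 6.75, 8.9 and 7.93 CPM to 13, 12.8 and 13.5 CPM (difference -2.11, adjusted p = 0.00185). These 2 kept their call in all 18 other settings. Lama1 (difference -1.32, adjusted p = 0.000567) and Smad6 (-1.02, lost in 9 settings) also fell further. Spink1 went from 554 counts to 1 in the knock-out, a 532-fold lower level (95% exact interval 95 to 21037), and fell by 2.72 in the wild-type (adjusted p of the difference = 0.00589). A2m, Cxcl5, Smoc2, Slit2 and Acta2 had differences of -2.71, -2.51, -2.43, -2.07 and -2.06, and each lost its call in between 1 and 11 of the 18 other settings. In Cxcl5, Smoc2, Slit2 and Acta2 the knock-out libraries of day 0 followed the order of the feeder sum. In A2m they ran in reverse, with 5.7, 9.97 and 20 CPM. The wild-type libraries of day 0, with feeder sums of 1424, 2542 and 2148 CPM, followed their own order in Smoc2, Slit2, Acta2 and A2m. In Cxcl5, with 4.77, 5.82 and 3.71 CPM, the wild-type libraries did not. The part of feeder cells in these differences was not tested. The feeder sums at day 0 were 1396 to 3681 CPM in the knock-out and 1424 to 2542 CPM in the wild-type, and 0 of the 20 feeder markers passed the test of the difference by edgeR, at an unadjusted p under 0.05 or by DESeq2. The interferon-induced Gbp2 and Gbp2b, close copies, fell less in the knock-out (2.68 and 2.67), where they started at 0.642 to 2.21 CPM, and lost the call in 12 and 8 settings.

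For canonical Wnt signalling the 2 genotypes took different courses in several genes. Axin2 did not pass the test in the knock-out and fell in the wild-type from 30.3, 48.8 and 48.5 CPM to 20.9, 16 and 14.4 CPM (difference 1.40 ± 0.26, adjusted p = 0.00218), so that the genotypes were apart at day 0 and overlapped at day 2. Lgr5 had 2.9, 1.58 and 1.09 CPM and then 0.552, 0.765 and 0.748 CPM in the knock-out, and rose in the wild-type from 0.849, 1.28 and 0.69 CPM to 4.75, 3.06 and 3.16 CPM (difference -3.37 ± 0.72, adjusted p = 0.00654, lost in 1 setting). Of the 16 Wnt feedback genes, 4 had a positive difference and 1 a negative one. Eomes differed by 1.39 (adjusted p = 0.0487), with 17.5, 28.3 and 22.7 CPM and then 20.8, 15.4 and 11.6 CPM in the wild-type, but 12 of 18 settings did not keep this.

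In other groups few or 0 differences passed the test, which does not show that the steps were alike. Of 23 cholesterol genes 0 passed by edgeR, with 7 at an unadjusted p under 0.05 and 1 by DESeq2, and the medians were 1.03 in the knock-out and 1.01 in the wild-type. Of 20 feeder genes and of 12 definitive endoderm genes 0 passed by edgeR, at an unadjusted p under 0.05 or by DESeq2. Definitive endoderm medians were -0.15 in the knock-out and 0.58 in the wild-type. For the 76 ribosomal protein genes the difference was positive in 10 and negative in 0 by edgeR and by DESeq2 (29 and 0 at an unadjusted p under 0.05), and positive in 4 to 15 over the other settings. The wild-type had 2 that rose and 32 that fell (median -0.13), beside 16 and 5 in the knock-out. Respiratory chain genes fell in 47 of 74 in the wild-type and in 35 in the knock-out, with 0 differences by edgeR, 12 at an unadjusted p under 0.05 and 2 by DESeq2.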

How the data were processed

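Polyadenylated RNA of CJ9 mouse embryonic stem cells, wild-type and Setd3 knock-out, was sequenced at days 0, 2, 3 and 4, with 3 libraries in each of 8 groups. The sample titles gave each library its group and replicate number. The authors deposited 1 table of raw whole-number counts, with Ensembl gene identifiers in rows and the 24 libraries in columns. Trimmomatic, HISAT2 and the build GRCm38.p6 are named in the submitters' processing notes. How reads were counted (tool, annotation, strand, reads with several positions) is not given in the sources used, and close copies and overlapping or antisense genes are uncertain for that reason. Of 55401 entries, 29207 had counts and 55141 have an entry in GENCODE M21. It was the source of coordinates and of 1857 names, in place of those that were blank or that a spreadsheet had turned into date numbers. The 2090 entries with blank names held 0.0848% of counts. Totals were 18531390 to 24244958 counts per library. Counts carry no molecular identifiers, so intervals and floors cover counting error only.

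For CPM, library sizes were scaled by TMM. All 24 libraries were fitted with edgeR 4.0.16 (limma 3.58.1, R 4.3.3) by its robust quasi-likelihood test (glmQLFit and glmQLFTest), 1 mean per group, after its filter on low counts, leaving 17144 genes with a common biological coefficient of variation of 0.0906. Contrasts were day 2 minus day 0 in the knock-out, the same in the wild-type, and the difference of these steps; p-values were adjusted by Benjamini-Hochberg over the tested genes at a threshold of 0.05. The knock-out and wild-type steps share no libraries. A group with 0 counts was given a floor of 3 counts over the group, and 1 to 3 counts an exact interval at 95%. Motifs were searched on both strands of RefSeq promoter windows. Tables were handled in Python 3.11.15 with pandas 2.3.3.

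The step, its 38 gene lists and the tests were chosen with earlier results of these data known. Named genes follow a rule: Setd3; the 10 highest and 10 lowest log2 fold changes and the 6 largest rises and falls in CPM of the knock-out step, among genes past the threshold, without overlap between days, a mean of 10 CPM or more in the higher group and a symbol that is no clone name; the 8 highest and 8 lowest differences of steps; and members of the lists. Several list members and 1 gene taken by this rule are not reported here. Alternatives were DESeq2's size factors, DESeq2's Wald test (1.42.0), no filter, a fit to only the compared groups, the same with a block for the replicate number, and each library left out in turn. Leaving out the 2 day 0 knock-out libraries with the highest and lowest feeder sum, and 10 further gene families, were added after the data were seen. On simulated counts for the knock-out step with 16952 tested genes, 67 genes were given a 1.5-fold change and 64.2% were called, 67 a 2-fold change with 85.1% called, and 66 a 4-fold change with 95.5% called. Among the 16752 genes left as they were, 14 were called. In the simulation only the genes named here changed, whereas 60.1% of tested genes were called in the data. The simulated rates therefore need not hold for the step itself.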

Additional observations from a re-analysis of the deposited data

Results flagged for a closer look

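The knock-out and wild-type steps from day 0 to day 2 differed by the test of the difference itself, the quasi-likelihood test of edgeR adjusted by the Benjamini-Hochberg method, in 1259 of 17144 genes. Among the genes taken by the naming rule 22 were such genes, and their values are the knock-out's log2 fold change minus the wild-type's. Positive differences were found for Fgf5 (3.98), Pdlim3 (2.88), Gbp2 (2.68), Gbp2b (2.67), Krt8 (2.65), Nsg2 (2.64), Enpp2 (2.52), Car4 (2.41), Zfp42 (1.62), Pim2 (1.59), Sox3 (1.58), Aadat (1.42), Dnmt3b (0.80) and Eef2 (0.21). Negative differences were found for Spink1 (-5.90), A2m (-2.71), Cxcl5 (-2.51), Smoc2 (-2.43), Emilin2 (-2.11), Id1 (-2.11), Slit2 (-2.07) and Acta2 (-2.06).

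Fgf5, Enpp2, Car4, Pim2, Sox3 and Dnmt3b rose in both genotypes and started lower in the knock-out. Pim2, for example, had 26.1 to 27.7 CPM in the knock-out and 83.2 to 125 CPM in the wild-type at day 0, and 803 to 874 CPM and 1061 to 1188 CPM at day 2. Eef2, with the smallest difference, had adjusted p = 0.049, close to the threshold. Of the 22 genes, 12 lost the call in at least 1 of 18 other settings: Aadat and Gbp2 in 12, Eef2 and Cxcl5 in 11, Gbp2b and Acta2 in 8, Smoc2 in 4, A2m in 3, and Slit2, with the replicate block, in 1, while Pim2, Sox3 and Dnmt3b lost it without the 2 knock-out day 0 libraries of highest and lowest feeder sum.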

How the results depend on the processing

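In the knock-out step the count of 10304 changed genes stayed within 1.5 times in every alternative: 9607 to 10175 with each library left out, 10177 by DESeq2's Wald test, 10327 with its size factors, 10233 without the filter, 9221 with only the groups compared, and 8683 without the 2 day 0 libraries of highest and lowest feeder sum, an alternative chosen after the data were seen. Size factors moved the median of all genes to -0.05 and the rising share of calls from 49.2% to 45.6%. The 33 genes named for the step kept their call throughout, and of 16 named for the difference 7 lost it somewhere. Among other list members of the report, step calls were lost for Kitl (3 settings), Id3 and Tpm2 (2 each), and Wnt3, Skil and Mettl9 (1 each). The wild-type count was 10335 to 10568 with each library left out.

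The difference of steps was less stable. Of 1259 genes, 732 higher and 527 lower, the counts with a library left out were 731 to 1645 in all, 485 to 872 higher and 246 to 773 lower; the lowest of each were without wild-type day 2 replicate 1, and for the lower genes the counts were 267 without knock-out day 2 replicate 1, 350 without its replicate 3 and 290 without wild-type day 0 replicate 1. Leaving out the 2 day 0 libraries gave 679 (408 higher, 271 lower), and only the groups compared gave 322 lower. With the replicate number as a block, 764 differed, 224 of them lower, and 9115 changed in the knock-out step. Same-numbered knock-out libraries of days 0 and 2 deviated together with r = 0.208, 0.0215 and 0.165 over 10760 genes. Day 0 replicates 1 and 3 correlated best with their own number, and replicate 2 with day 2 replicate 1 (0.102). In the wild-type the same-numbered values were -0.325, -0.239 and 0.138. These values do not settle whether the numbers pair the libraries, and the main fit took no pairing. Among list members of the report, difference calls were lost in 1 setting for Dnmt3b, Lef1, Fgf4, Grhl2, Sox3, Nr0b1, Tcl1 and Krt18, in 2 for Dnmt3l and in 3 for Tet2. The cause of these shifts was not tested. In genes of a few counts, depth limits what can be said of day 2 levels.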

Other observations

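Families outside the lists of the report were described after their values had been seen, so their counts support nothing further. Immediate early genes, which answer growth factors and handling within minutes, fell almost as a group: 12 of 14 fell and 1 rose, with a median of -3.41. Fos had 105, 94.6 and 181 CPM at day 0 and 0.502, 0.408 and 0.898 CPM at day 2 (-7.70 ± 0.34, adjusted p = 6.73e-13 by edgeR), and Fosb had 102, 80.8 and 110 CPM and then 0.301, 0.765 and 0.549 CPM (-7.49 ± 0.22, adjusted p = 5.35e-18 by edgeR). Jun fell from 44, 31.9 and 43.7 CPM to 8.99, 8 and 8.98 CPM and Ier2 by 1.00, while Jund rose by 0.75. In Fos, Fosb and Jun the day 0 libraries did not follow the order of the feeder sum, in which replicate 3 was lowest. In 5 of the 14 genes they did: Fosl2, Junb, Egr3, Nr4a1 and Ier3, of which Fosl2 had 79.4, 60.9 and 31.6 CPM and Ier3 had 76, 43.6 and 39.6 CPM. The share of all tested genes in that order was not counted, and the part of feeder cells in these falls was not tested.

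Of 41 tested collagen genes (44 listed), 28 fell and 4 rose (median -1.56), the risers being Col9a3 (1.53), Col4a6 (1.49), Col17a1 (0.87) and Col9a2 (0.83). Integrins (17 of 26 tested fell, 4 rose, median -0.97) and serpins (17 of 23 tested fell, 4 rose, median -2.68) were like them, beside the feeder sum, whose part was not tested. Of 16 tested Wnt ligand genes (19 listed), 9 fell and 1 rose: Wnt11 fell by 3.53, Wnt7b by 3.14, and Wnt4 rose by 1.18.

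Several signalling and trafficking families rose. Of 13 tested MAP kinase genes 10 rose and 1 fell. Mapk12, which encodes p38 gamma, went from 6.21, 5.64 and 8.05 CPM to 62.3, 64.6 and 62.8 CPM (3.26 ± 0.11), Mapk4 rose by 2.77 and Mapk10 by 2.11, and Mapk15 fell by 0.76. Of 14 tested synaptotagmins, calcium sensors of vesicle fusion, 9 rose and 0 fell by edgeR and by DESeq2, with 10 and 1 at an unadjusted p under 0.05. Syt11 went from 21.1, 21.6 and 24.3 CPM to 63.8, 57 and 63.2 CPM, Syt2 rose by 3.03, Syt4 by 1.68 and Syt7 by 1.43. Of 10 Ras association domain genes 8 rose and 2 fell (median 0.87), and of 11 histone deacetylases 7 rose and 1 fell, with Hdac1 going from 244, 248 and 236 CPM to 300, 296 and 301 CPM. Of 72 tested mitochondrial ribosomal protein genes (78 listed), 32 fell and 12 rose, with a median of -0.14.

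By annotation class, 17.6% of 680 tested lincRNA genes rose and 33.8% fell, with a median of -0.34. Of 14553 protein-coding genes 32.1% rose and 32.0% fell.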
